A study of Mus musculus with 9 samples.

Results

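The nucleolus is where a cell makes its ribosomes, and 45 genes for the protein machinery of that process were followed here in AML12 cells, a line of mouse hepatocytes. By what their proteins are known to do, they comprise 4 subunits of RNA polymerase I, 5 core proteins of small nucleolar ribonucleoproteins (snoRNPs), 5 abundant nucleolar proteins and regulators, 10 proteins of the small subunit processome, 5 factors of late small-subunit assembly and 16 factors of large-subunit assembly. All 45 were matched by symbol among the 30350 genes of the table, and all 45 were among the 11659 genes that passed the filter on low values. The study held 3 groups of 3 bulk RNA libraries each. NC cells grew in DMEM/F12 medium, FFA cells were exposed to free fatty acids, and FFA_SIN cells had free fatty acids for 24 h and then free fatty acids with 200 µM sinomenine for 48 h. Sinomenine is a plant alkaloid. The labels name neither the fatty acids nor the exposure time of the FFA group, so the presence of sinomenine and any difference in culture time cannot be told apart between FFA_SIN and FFA. The labels do not say whether the libraries of a group came from separate cultures, so a p-value reflects how far these libraries vary, and that variation may be technical only.

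Ribosome production starts with RNA polymerase I, which transcribes one long precursor of the ribosomal RNAs (rRNAs). Box C/D and box H/ACA snoRNPs modify that precursor at many bases. The small subunit processome folds and cleaves the part that becomes the small subunit, late factors finish the small subunit in the nucleus and cytoplasm, and a separate chain of assembly factors builds the large subunit. The transcription factor MYC is known to activate many of these genes, and hepatocytes enlarge the nucleolus when they prepare to grow or divide.

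Values are FPKM, read counts scaled by gene length and library total, so levels of different genes may be compared. The low values of the table imply between 43201346 and 71391844 reads per library, and for the 45 genes between 625 and 54265 reads per gene and library. All 11 hepatocyte markers examined were at 1 FPKM or more, while all 5 endothelial markers, 6 of 7 fibroblast and stellate markers and 2 of the 3 leukocyte markers found in the table stayed below that level. The exception among the fibroblast and stellate markers was Des, desmin, which measured 9.73 ± 0.134 FPKM in NC, 5.81 ± 0.473 in FFA and 2.94 ± 0.0758 in FFA_SIN (SD, n = 3). The summed hepatocyte markers ran from 4000 to 4067 FPKM in NC, from 4277 to 4315 in FFA and from 4618 to 4710 in FFA_SIN. The 11 markers did not rise as a set. At an adjusted p below 0.05 in limma, 4 rose and 4 fell in FFA against NC, where 19.1% and 18.4% of all tested genes did. In FFA_SIN against NC 4 were higher and 5 lower, where 24.7% and 26.5% of all tested genes were. The part of these shifts in the results below was not tested. In bulk RNA, fewer cells of a type and less RNA per cell cannot be told apart.

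Levels of the 45 genes varied widely in untreated cells. The lowest NC mean was that of Wdr12, at 2.96 FPKM, and the highest that of Npm1, at 309 FPKM, with a median of 14.9 FPKM. 29 genes reached 10 FPKM, 12 reached 30 FPKM and 5 reached 50 FPKM. Those 5 were Npm1, Nop10, Bop1, Mybbp1a and Ncl. Replicates were close: the coefficient of variation within a group had a median of 2.604% and a maximum of 8.90%.

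**Figure D1:**
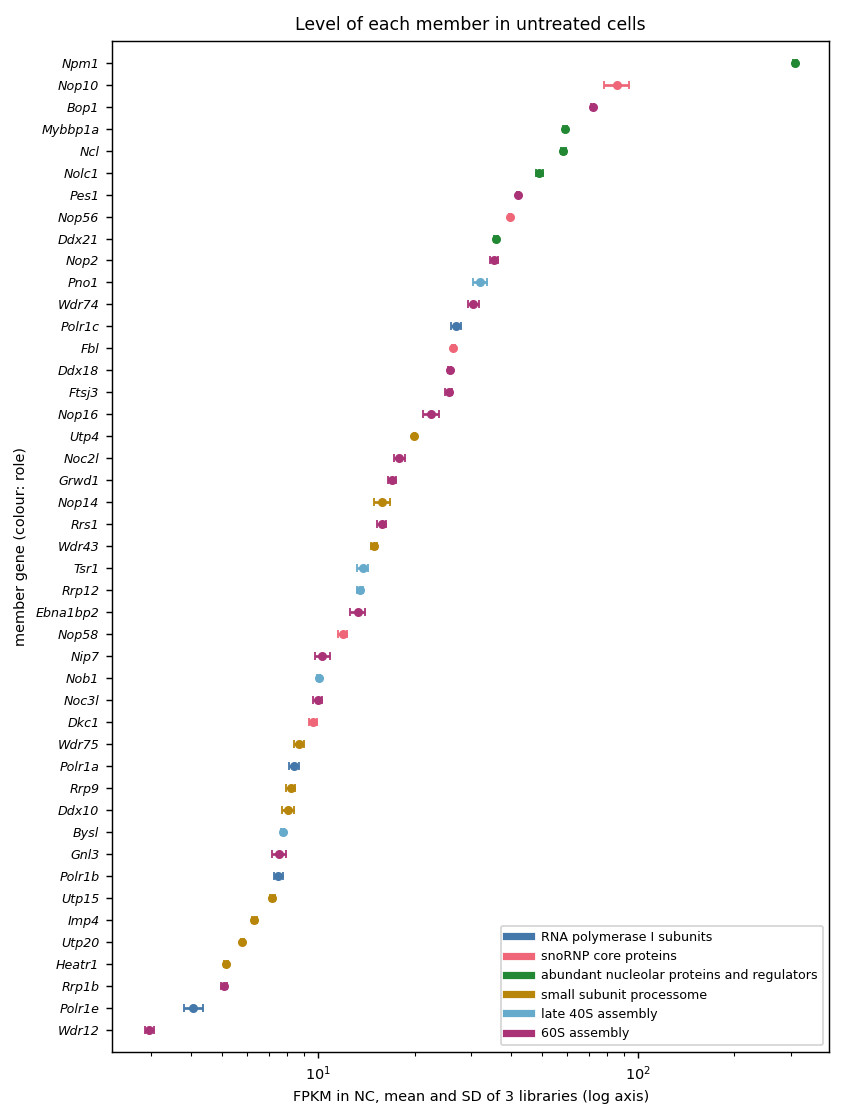
Mean FPKM in the 3 NC libraries on a log axis, with bars of 1 SD, for each of the 45 genes in rank order. The genes run from 2.96 FPKM for Wdr12 to 309 FPKM for Npm1.

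The first comparison sets FFA against NC. The exposure time of the FFA group is not given. Fatty acids, any carrier given with them and any difference in culture time therefore cannot be told apart here. Most of the 45 genes were lower in the FFA libraries. They were chosen with earlier results of these data known, so their counts may partly reflect that choice. 37 of the 45 genes (82.2%) fell, 1 rose and 7 did not pass the test, in limma fitted to log2(FPKM + 1) with Benjamini-Hochberg adjustment over all 11659 genes at 0.05. Among all tested genes 18.4% fell and 19.1% rose, 37.5% in all. Falls were found in all 6 role groups: 3 of 4 polymerase subunits, 4 of 5 snoRNP proteins, 5 of 5 abundant nucleolar proteins, 7 of 10 processome proteins, 4 of 5 late small-subunit factors and 14 of 16 large-subunit factors. In 37 genes every FFA library was below every NC library, and in 1 above, against 24.1% and 24.8% of all tested genes. The changes were small: the median log2 difference was -0.18, against 0.004 for all tested genes, and the values ran from -0.43 for Rrs1 to 0.06. Added over the 45 genes, the level was 1263 ± 8.61 FPKM in NC, 1129.7 ± 11.98 in FFA and 1147 ± 7.59 in FFA_SIN (SD, n = 3). As a share of all FPKM in a library, these sums were on average 0.405%, 0.356% and 0.360%.

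**Figure D2:**
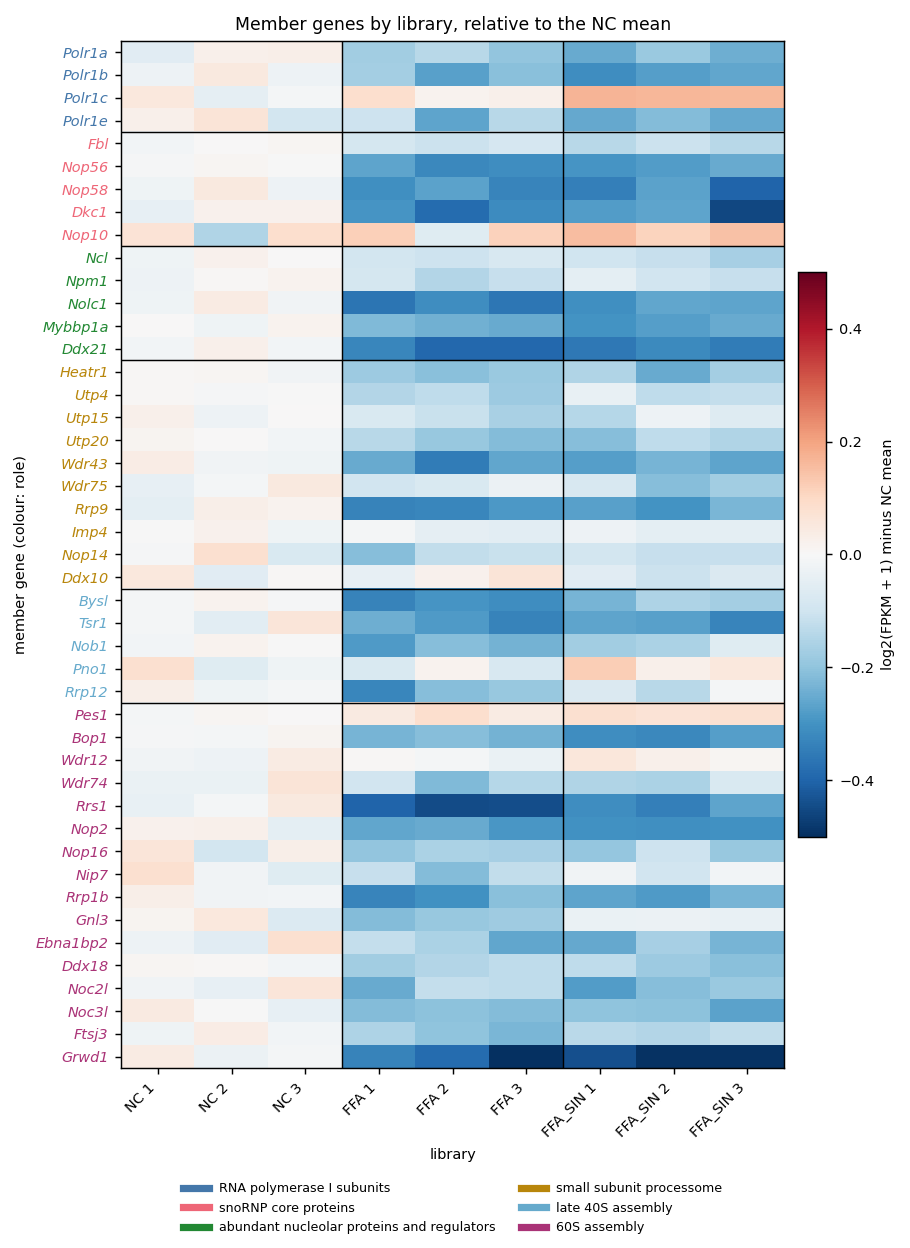
Each of the 45 genes (rows, grouped by role) in each of the 9 libraries (columns), as log2(FPKM + 1) minus the mean of the NC libraries, with colours held at 0.5 in either direction. Most rows are lower in all 3 FFA libraries and in all 3 FFA_SIN libraries than in NC.

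Of the 4 RNA polymerase I subunits, 3 fell in FFA against NC. Polr1a, the largest subunit, measured 8.04, 8.58 and 8.6 FPKM in the NC libraries, 7.34, 7.54 and 7.2 in the FFA libraries and 6.9, 7.26 and 6.95 in the FFA_SIN libraries. All FFA and FFA_SIN libraries were below all NC libraries. The log2 difference of Polr1a was -0.17 ± 0.03 (SE, adjusted p = 0.00384) in FFA against NC. Polr1b, the second catalytic subunit, measured 7.35, 7.8 and 7.35 FPKM in the NC libraries, 6.56, 6.05 and 6.36 in the FFA libraries and 5.86, 6.02 and 6.09 in the FFA_SIN libraries. Polr1b too had every FFA and FFA_SIN library below every NC library, with a difference of -0.22 ± 0.04 (SE, adjusted p = 0.00134). Polr1e, a subunit associated with the core enzyme, measured 4.16, 4.29 and 3.75 FPKM in the NC libraries, 3.71, 3.21 and 3.6 in the FFA libraries and 3.24, 3.35 and 3.23 in the FFA_SIN libraries. The lowest NC library of Polr1e lay just above the highest FFA library. The Polr1e difference was -0.17 ± 0.05 (SE, adjusted p = 0.0353), and without NC replicate 1, NC replicate 2, FFA replicate 2 or FFA replicate 3 the adjusted p was 0.0958, 0.115, 0.107 or 0.0570. Polr1c is also a subunit of RNA polymerase III. It measured 27.9, 26 and 26.7 FPKM in the NC libraries, 28.5, 27.2 and 27.4 in the FFA libraries and 30.4, 30.3 and 30.2 in the FFA_SIN libraries. NC and FFA overlapped, and all 3 FFA_SIN libraries were higher than both. Polr1c differed by 0.04 ± 0.03 (SE, adjusted p = 0.292) in FFA against NC and by 0.12 ± 0.03 (SE, adjusted p = 0.0102) in FFA_SIN against FFA.

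Of the 5 snoRNP core proteins, 4 fell in FFA against NC. Nop56 and Nop58 are the paired core proteins of box C/D snoRNPs. Nop56 measured 39.6, 40.01 and 39.7 FPKM in the NC libraries, 33, 31.6 and 31.9 in the FFA libraries and 32.2, 32.6 and 33.2 in the FFA_SIN libraries. Nop58 measured 11.7, 12.3 and 11.7 FPKM in the NC libraries, 9.43, 9.73 and 9.25 in the FFA libraries and 9.17, 9.73 and 8.78 in the FFA_SIN libraries. In both genes FFA and FFA_SIN lay wholly below NC. The log2 differences of FFA against NC were -0.30 ± 0.02 (SE, adjusted p = 1.06e-05) for Nop56 and -0.30 ± 0.04 (SE, adjusted p = 0.000314) for Nop58. Fbl, fibrillarin, the methyltransferase of the same particles, measured 26.2, 26.4 and 26.7 FPKM in the NC libraries, 24.8, 24.5 and 24.9 in the FFA libraries and 23.9, 24.5 and 23.9 in the FFA_SIN libraries. FFA and FFA_SIN nearly met in Fbl and both lay below NC, and FFA against NC was -0.09 ± 0.02 (SE, adjusted p = 0.00507). Dkc1, the pseudouridine synthase of box H/ACA snoRNPs, measured 9.31, 9.79 and 9.77 FPKM in the NC libraries, 7.64, 7.14 and 7.53 in the FFA libraries and 7.75, 7.84 and 6.75 in the FFA_SIN libraries. The FFA and FFA_SIN values of Dkc1 interleaved below NC, and FFA differed from NC by -0.33 ± 0.05 (SE, adjusted p = 0.000905). Nop10, the small protein that binds Dkc1, was chosen for description after its values were seen. Its NC, FFA and FFA_SIN libraries measured 86 ± 7.65 FPKM in NC, 89.4 ± 6.33 in FFA and 94.5 ± 1.53 in FFA_SIN (SD, n = 3), with a log2 difference of 0.06 ± 0.07 (SE, adjusted p = 0.538) in FFA against NC and a 95% interval of -0.09 to 0.21. The FFA and NC ranges of Nop10 overlapped, and without NC replicate 2 the difference was -0.018 (adjusted p = 0.825).

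All 5 abundant nucleolar proteins fell in FFA against NC, by unequal amounts. Ddx21, an RNA helicase active in rRNA transcription and processing, measured 35.6, 36.6 and 35.6 FPKM in the NC libraries, 28.4, 27.1 and 27.1 in the FFA libraries and 27.8, 28.6 and 28 in the FFA_SIN libraries. Nolc1, a scaffold that binds snoRNPs, measured 48.3, 50.5 and 48.5 FPKM in the NC libraries, 37.9, 39.4 and 38 in the FFA libraries and 39.5, 40.8 and 40.8 in the FFA_SIN libraries. Neither gene had an FFA or FFA_SIN library within the NC range. The differences of FFA against NC were -0.37 ± 0.03 (SE, adjusted p = 5.7e-06) for Ddx21 and -0.35 ± 0.03 (SE, adjusted p = 1.21e-05) for Nolc1. Mybbp1a, a nucleolar protein that binds MYB and p53, measured 59.2, 58.3 and 59.9 FPKM in the NC libraries, 50.6, 49.8 and 49.4 in the FFA libraries and 47.9, 48.7 and 49.4 in the FFA_SIN libraries. FFA and FFA_SIN lay below NC and overlapped each other, and the FFA against NC difference of Mybbp1a was -0.24 ± 0.02 (SE, adjusted p = 2.57e-05). Ncl, nucleolin, an RNA-binding protein of the nucleolus, measured 57.5, 59.3 and 58.5 FPKM in the NC libraries, 54.8, 54.2 and 55.2 in the FFA libraries and 54.5, 53.8 and 51.9 in the FFA_SIN libraries. NC lay above both other groups, and FFA against NC differed by -0.09 ± 0.02 (SE, adjusted p = 0.0122). Npm1, nucleophosmin, is a chaperone of the granular part of the nucleolus and was named for its level after its values were seen. Npm1 measured 304, 310.4 and 312 FPKM in the NC libraries, 290.2, 279 and 285 in the FFA libraries and 298, 289 and 285 in the FFA_SIN libraries. All FFA libraries were below all NC libraries, with a difference of -0.12 ± 0.02 (SE, adjusted p = 0.00415). Npm1 has processed pseudogenes, so the division of its reads is uncertain. Without Npm1 the summed level of the other 44 genes was 954 FPKM in NC, 845 in FFA and 857 in FFA_SIN.

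In the small subunit processome 7 of 10 genes fell in FFA against NC and none rose. Rrp9, a protein of the U3 snoRNP, measured 7.91, 8.39 and 8.33 FPKM in the NC libraries, 6.31, 6.34 and 6.55 in the FFA libraries and 6.63, 6.49 and 6.85 in the FFA_SIN libraries. Wdr43, part of the early-binding complex that also joins transcription to processing, measured 15.3, 14.8 and 14.7 FPKM in the NC libraries, 12.4, 11.5 and 12.3 in the FFA libraries and 12.2, 12.6 and 12.3 in the FFA_SIN libraries. NC stood above both other groups in each gene. The log2 differences of FFA against NC were -0.32 ± 0.03 (SE, adjusted p = 6.98e-05) for Rrp9 and -0.29 ± 0.03 (SE, adjusted p = 0.000137) for Wdr43. Heatr1, a large protein of the same early complex, measured 5.17, 5.19 and 5.06 FPKM in the NC libraries, 4.41, 4.31 and 4.41 in the FFA libraries and 4.54, 4.16 and 4.46 in the FFA_SIN libraries. Utp20, a large scaffold protein, measured 5.84, 5.79 and 5.73 FPKM in the NC libraries, 5.16, 4.95 and 4.83 in the FFA libraries and 4.85, 5.22 and 5.12 in the FFA_SIN libraries. In both genes all NC libraries were above all others. They fell, with differences of -0.19 ± 0.03 (SE, adjusted p = 0.00201) and -0.18 ± 0.03 (SE, adjusted p = 0.00273). Utp4 and Utp15 belong to the early complex too, with -0.15 ± 0.03 (SE, adjusted p = 0.00282) and -0.12 ± 0.04 (SE, adjusted p = 0.037). Nop14, which joins later, differed by -0.15 ± 0.04 (SE, adjusted p = 0.0199). The call of Utp15 was lost without any of NC replicates 1, 2 and 3, FFA replicates 2 and 3 or FFA_SIN replicate 3, with adjusted p of 0.104, 0.0521, 0.0853, 0.0753, 0.121 and 0.0503, and that of Nop14 without NC replicate 2 (0.0582) or FFA replicate 1 (0.0672). Wdr75, of the early complex, Imp4, which binds U3 snoRNA, and Ddx10, a helicase, did not pass. Their 95% intervals of the log2 difference were -0.16 to 0.02, -0.10 to 0.02 and -0.07 to 0.10.

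Of the 5 late small-subunit factors, 4 fell in FFA against NC, where 18.4% of all tested genes did. In FFA_SIN against FFA 3 of the 5 rose, a few genes in a list of this size. In that comparison 6 of the 45 genes and 13.9% of all tested genes rose. Bysl, bystin, an export-linked factor, measured 7.68, 7.83 and 7.68 FPKM in the NC libraries, 5.92, 6.13 and 6.04 in the FFA libraries and 6.43, 6.85 and 6.76 in the FFA_SIN libraries. The FFA_SIN libraries of Bysl lay between the other groups, overlapping neither. The log2 difference was -0.31 ± 0.03 (SE, adjusted p = 4.48e-05) in FFA against NC and 0.13 ± 0.03 (SE, adjusted p = 0.00922) in FFA_SIN against FFA. Nob1, the nuclease that makes the last cut of the small-subunit rRNA, measured 9.91, 10.2 and 10.01 FPKM in the NC libraries, 8.05, 8.5 and 8.36 in the FFA libraries and 8.77, 8.87 and 9.58 in the FFA_SIN libraries. Its FFA values were the lowest, and the differences were -0.25 ± 0.04 (SE, adjusted p = 0.000612) and 0.11 ± 0.04 (SE, adjusted p = 0.0358). Rrp12, which takes part in export of pre-ribosomes, measured 13.8, 13.3 and 13.4 FPKM in the NC libraries, 10.6, 11.5 and 11.7 in the FFA libraries and 12.8, 12.2 and 13.4 in the FFA_SIN libraries. FFA was below both other groups, while NC and FFA_SIN overlapped. Rrp12 differed by -0.24 ± 0.04 (SE, adjusted p = 0.00216) and then by 0.17 ± 0.04 (SE, adjusted p = 0.0161). The second difference of Nob1 had adjusted p of 0.0517, 0.111, 0.0727, 0.0508 and 0.0975 without NC replicate 3, FFA replicate 1, FFA replicate 3, FFA_SIN replicate 2 and FFA_SIN replicate 3, and that of Rrp12 had 0.0572 without FFA_SIN replicate 3. Tsr1, a GTPase-like factor of late assembly, measured 13.7, 13.2 and 14.4 FPKM in the NC libraries, 11.5, 11.1 and 10.7 in the FFA libraries and 11.3, 11.2 and 10.7 in the FFA_SIN libraries. FFA and FFA_SIN overlapped in Tsr1 and both were below NC, with -0.29 ± 0.04 (SE, adjusted p = 0.000331) and -0.0026 ± 0.04 (SE, adjusted p = 0.967). Pno1, the partner of Nob1, did not pass in any comparison, with means of 32.1 ± 1.7 FPKM in NC, 31 ± 1.23 in FFA and 33.6 ± 1.22 in FFA_SIN (SD, n = 3).

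Large-subunit assembly held the 2 largest falls among the 45 genes in FFA against NC, those of Rrs1 and Grwd1. Rrs1, which helps bring the RNP of the smallest rRNA into the large subunit, measured 15.3, 15.6 and 16.4 FPKM in the NC libraries, 11.7, 11.3 and 11.3 in the FFA libraries and 12.5, 12.2 and 13 in the FFA_SIN libraries. The 3 groups did not overlap: NC was highest and FFA lowest. Rrs1 differed by -0.43 ± 0.03 (SE, adjusted p = 9.3e-06) in FFA against NC and by 0.12 ± 0.03 (SE, adjusted p = 0.0146) in FFA_SIN against FFA, and the latter had an adjusted p of 0.0521 without FFA_SIN replicate 3. Grwd1, whose yeast counterpart is a chaperone of a ribosomal protein, measured 17.5, 16.6 and 16.9 FPKM in the NC libraries, 13.3, 12.8 and 11.7 in the FFA libraries and 12.3, 11.8 and 11.8 in the FFA_SIN libraries. FFA and FFA_SIN overlapped below NC, and the differences were -0.41 ± 0.04 (SE, adjusted p = 8.7e-05) and -0.07 ± 0.04 (SE, adjusted p = 0.261). Nop2, a methyltransferase of large-subunit rRNA, measured 36, 36.1 and 34.3 FPKM in the NC libraries, 29.4, 29.6 and 28.8 in the FFA libraries and 28.6, 28.5 and 28.6 in the FFA_SIN libraries. FFA lay below NC, with a difference of -0.27 ± 0.02 (SE, adjusted p = 4.12e-05), and the FFA_SIN libraries were the lowest of the 9. Gnl3, nucleostemin, a GTPase of proliferating cells, was singled out after its values were seen and measured 7.61, 7.85 and 7.14 FPKM in the NC libraries, 6.33, 6.48 and 6.53 in the FFA libraries and 7.33, 7.37 and 7.31 in the FFA_SIN libraries. Its FFA libraries stood alone at the bottom, with -0.20 ± 0.03 (SE, adjusted p = 0.00169) and 0.16 ± 0.03 (SE, adjusted p = 0.00538). Among the remaining genes, the helicase Ddx18, the methyltransferase Ftsj3, Noc2l, Noc3l, Nop16, Nip7, Rrp1b, Ebna1bp2 and Wdr74 all fell in FFA against NC. They ranged from -0.28 for Rrp1b to -0.15 for Ddx18. Of these, Nip7 lost its call without NC replicate 1 (0.0788) or FFA replicate 2 (0.0825), Ebna1bp2 without NC replicate 3 (0.0517) or FFA replicate 3 (0.0533), Noc2l without NC replicate 3 (0.0542) and Wdr74 without NC replicate 3 (0.0534), where the values are adjusted p.

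Pes1, Bop1 and Wdr12 form one complex of the large subunit pathway, and in FFA against NC 1 of them fell, 1 rose and 1 did not pass. Bop1 measured 71.8, 71.6 and 72.7 FPKM in the NC libraries, 61.2, 62 and 61 in the FFA libraries and 57.9, 57.4 and 59.3 in the FFA_SIN libraries. It stepped down from NC to FFA and again to FFA_SIN without overlap between groups, with differences of -0.23 ± 0.02 (SE, adjusted p = 2.4e-05) and then -0.08 ± 0.02 (SE, adjusted p = 0.0143). The second step had an adjusted p of 0.0594 without FFA_SIN replicate 2. Pes1 measured 41.8, 42.3 and 42.2 FPKM in the NC libraries, 43.4, 44.7 and 43.4 in the FFA libraries and 44.5, 44.2 and 44.5 in the FFA_SIN libraries. All FFA and FFA_SIN libraries of Pes1 were above all NC libraries. Pes1 was the 1 gene of the 45 that rose in FFA against NC, by 0.06 ± 0.02 (SE, adjusted p = 0.042), and without any 1 of the 9 libraries in turn the adjusted p ran from 0.0534 to 0.132. Wdr12 measured 2.96 ± 0.102 FPKM in NC, 2.93 ± 0.0502 in FFA and 3.05 ± 0.07003 in FFA_SIN (SD, n = 3). Wdr12 did not pass in any comparison, and its FFA against NC interval was -0.09 to 0.07. Pes1 and Wdr12 were singled out after their values were seen.

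**Figure D3:**
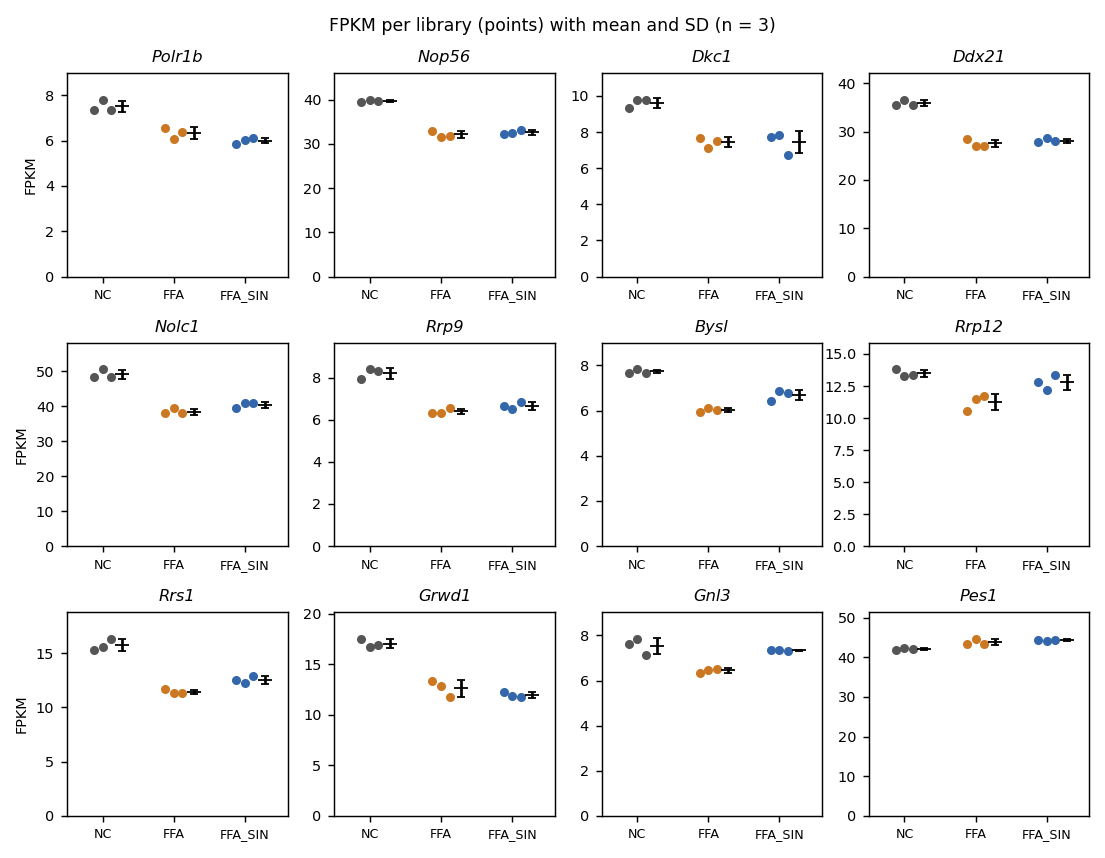
FPKM of 12 of the genes in each library (points), with the mean and SD of each group of 3, on axes that start at 0. Rrs1, Bysl, Rrp12 and Gnl3 are lowest in FFA, whereas the FFA and FFA_SIN points of Nop56, Dkc1, Ddx21 and Grwd1 overlap below NC and Pes1 is not lower than in NC.

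The second comparison sets FFA_SIN against FFA, where the presence of sinomenine and any difference in culture time cannot be told apart. It uses the same FFA libraries as the first, so the values of the first and second comparison are not independent. 6 of the 45 genes rose, 1 fell and 38 did not pass, where 13.9% of all tested genes rose and 17.3% fell, 31.2% in all. The genes that rose were Polr1c, Bysl, Nob1, Rrp12, Rrs1 and Gnl3, and the gene that fell was Bop1. Of the 6, all but Polr1c had fallen in FFA against NC. 11 genes had every FFA_SIN library above every FFA library and 4 had every one below, where 20.4% and 25.1% of all tested genes did. The median log2 difference was 0.02, beside -0.009 for all tested genes. For the 38 genes that did not pass, the 95% intervals lay between -0.20 and 0.23, reaching a median of 0.078 to either side of the estimate. Nolc1 was just outside the calls, at 0.07 ± 0.03 (SE, adjusted p = 0.0785), with all FFA_SIN libraries above all FFA libraries. Without FFA replicate 2 its adjusted p was 0.0498. With 1 library left out, Pno1 also passed as higher without NC replicate 1 (0.0484) or FFA replicate 2 (0.0478). Ddx10 passed as lower without FFA replicate 1 (0.0483), Grwd1 without FFA replicate 3 (0.0361) and Wdr75 without FFA_SIN replicate 1 (0.0410).

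**Figure D4:**
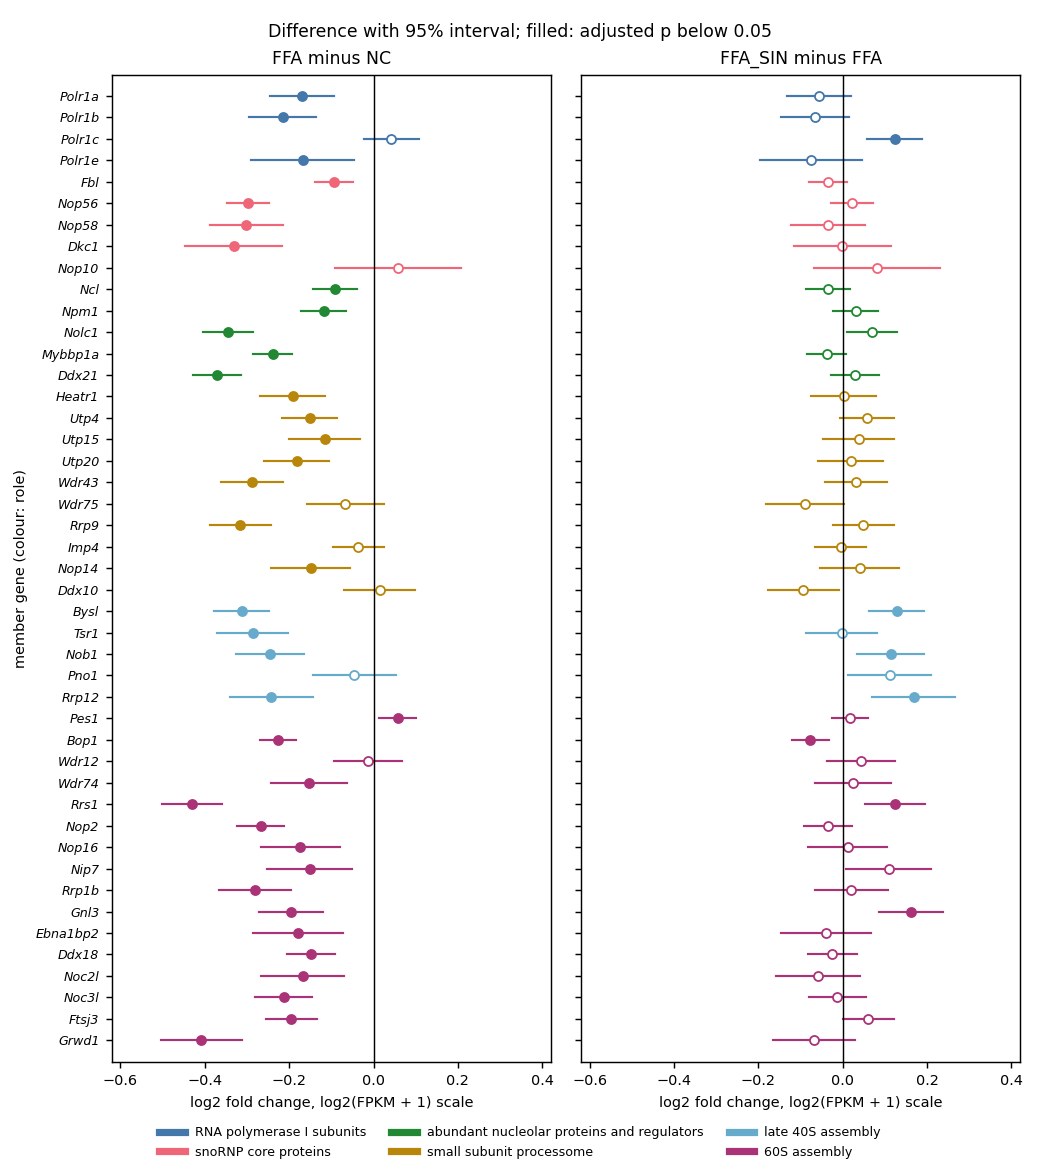
Log2 difference of each gene with its 95% interval, for FFA against NC and FFA_SIN against FFA; filled points have an adjusted p below 0.05 in limma. In FFA against NC 37 genes lie below 0 and passed, whereas in FFA_SIN against FFA most intervals include 0.

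The third comparison sets FFA_SIN against NC and shares libraries with both others. 33 of the 45 genes (73.3%) were lower, 2 were higher (Polr1c and Pes1) and 10 did not pass, where 26.5% of all tested genes were lower and 24.7% higher. In 35 genes every FFA_SIN library was below every NC library and in 3 above, where 31% and 29.1% of all tested genes were. In all, 51.3% of the tested genes passed in this comparison. The median log2 difference was -0.17, beside -0.006 for all tested genes. Grwd1 was the lowest, at -0.48 ± 0.04 (SE, adjusted p = 1.44e-05), followed by Ddx21, at -0.34 ± 0.03 (SE, adjusted p = 3.82e-06). Of the 6 genes higher in FFA_SIN than in FFA, Bysl, Nob1 and Rrs1 were still below NC, with -0.18 (adjusted p = 0.000603), -0.13 (adjusted p = 0.012) and -0.31 (adjusted p = 3.65e-05). Rrp12 and Gnl3 did not pass against NC, with 95% intervals of -0.17 to 0.02 and -0.11 to 0.04. Taking the 3 comparisons side by side, 28 genes fell in FFA against NC, did not pass in FFA_SIN against FFA and were lower in FFA_SIN than in NC. Nop10, Imp4, Ddx10, Pno1 and Wdr12 did not pass in any of the 3. How many of all tested genes showed either pattern was not counted, and calls in comparisons that share libraries are not independent. Utp4 lost its call against NC without NC replicate 1, FFA_SIN replicate 2 or FFA_SIN replicate 3 (adjusted p 0.0541, 0.0760 and 0.0672), and Wdr74 without NC replicate 3, FFA_SIN replicate 1 or FFA_SIN replicate 2 (0.0843, 0.0722 and 0.0780). Nop14 passed as lower without NC replicate 3 (0.0168) or FFA replicate 1 (0.0415), and Ddx10 without NC replicate 2 (0.0480).

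Mean level, length and GC content varied among the 45 genes. Level and length tracked the FFA difference weakly, and GC content did so more. Genes are not independent replicates. Across the 45 genes in the same 9 libraries, Spearman's rho between the FFA against NC log2 difference and mean level was 0.10. With the length of all annotated exons of a gene, overlaps counted once, it was -0.10. With GC content it was -0.35. Exons of 21 of the 45 genes overlap those of another gene in the GENCODE vM21 annotation, on the opposite strand in 19 and on the same strand in 4. The sources used here do not give the strand setting of the counting, and reads of such a gene and its partner may be mixed. Bop1 overlaps Mroh1, Bysl overlaps Ccnd3, Gnl3 overlaps Pbrm1, Grwd1 overlaps Gm45441 and Nop56 overlaps Idh3b. Of the 37 genes that fell in FFA against NC, 20 have no such overlap.

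Start-site windows were examined for the E-box CACGTG, the sequence that MYC with its partner MAX and other proteins of the same class bind. RefSeq windows on GRCm38.p6, from 250 bases before to 50 after the start, were found for 40 of the 45 genes and not for Fbl, Npm1, Rrp12, Bop1 and Rrs1. The E-box, which reads the same on both strands, occurred in the windows of 10 of these 40 genes (25.0%) and of 8.09% of 27025 genes. Those 27025 were all genes with a window, expressed in these cells or not, whereas the 40 had all passed the filter on low values. For each motif, the shares therefore compare unlike sets of genes. The 10 were Grwd1, Imp4, Mybbp1a, Nop2, Pes1, Pno1, Tsr1, Utp20, Utp4 and Wdr43. In FFA against NC, 7 of the 10 fell, 1 rose and 2 did not pass, and of the 30 genes with a window without it 25 fell and 5 did not pass. The ETS core CCGGAAG, on either strand, was in 14 windows (35.0%) beside 9.93% of all genes. The YY1 core AAGATGGC, on either strand, was in 3 (7.5%) beside 3.19%, and a palindromic promoter element centred on CGCG was in 0, against 0.525%. The ETS and YY1 motifs can share the letters AAG, the other pairs share no such stretch, and a match is a description of the sequence only. The windows below show the E-box in 3 genes that fell in both comparisons with NC and in Pes1, which did not; they read 5′ to 3′ on the gene's strand, with each motif found in capitals.
Grwd1 (chr7:45830740-45831039, minus strand): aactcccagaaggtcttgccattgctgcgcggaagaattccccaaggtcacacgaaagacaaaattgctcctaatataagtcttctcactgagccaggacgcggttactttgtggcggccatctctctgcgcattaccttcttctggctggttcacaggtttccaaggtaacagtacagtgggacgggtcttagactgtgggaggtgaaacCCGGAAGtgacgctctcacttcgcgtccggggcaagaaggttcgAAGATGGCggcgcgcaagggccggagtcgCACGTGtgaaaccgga
Nop2 (chr6:125131633-125131932, plus strand): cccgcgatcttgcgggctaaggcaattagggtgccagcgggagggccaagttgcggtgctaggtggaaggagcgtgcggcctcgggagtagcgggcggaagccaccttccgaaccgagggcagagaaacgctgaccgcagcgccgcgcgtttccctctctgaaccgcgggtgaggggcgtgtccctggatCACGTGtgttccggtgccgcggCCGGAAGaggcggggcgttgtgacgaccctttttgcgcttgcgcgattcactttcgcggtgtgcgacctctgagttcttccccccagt
Mybbp1a (chr11:72441077-72441376, plus strand): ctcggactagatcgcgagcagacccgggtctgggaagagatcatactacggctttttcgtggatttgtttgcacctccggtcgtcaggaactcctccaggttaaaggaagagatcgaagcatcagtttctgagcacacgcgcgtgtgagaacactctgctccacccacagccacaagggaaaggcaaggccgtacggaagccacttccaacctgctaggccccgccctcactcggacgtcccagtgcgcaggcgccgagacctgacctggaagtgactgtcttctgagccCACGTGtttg
Pes1 (chr11:3963725-3964024, plus strand): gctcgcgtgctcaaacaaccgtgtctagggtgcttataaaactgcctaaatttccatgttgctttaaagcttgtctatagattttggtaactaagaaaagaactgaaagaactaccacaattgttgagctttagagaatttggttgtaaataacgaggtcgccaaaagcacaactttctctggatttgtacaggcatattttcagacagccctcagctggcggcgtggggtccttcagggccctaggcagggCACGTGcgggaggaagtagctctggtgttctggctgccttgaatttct
Counting the start as position 1, the E-box began at 35 in Grwd1, at -60 in Nop2, at 41 in Mybbp1a and at 3 in Pes1. Grwd1 also held the ETS core at -39 and the YY1 core at 6, and Nop2 the ETS core at -38. Grwd1, Nop2 and Mybbp1a differed by -0.41, -0.27 and -0.24 in FFA against NC and Pes1 by 0.06.

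Myc itself fell in FFA against NC and again in FFA_SIN against FFA. It measured 58.1, 57.1 and 57.5 FPKM in the NC libraries, 37.4, 37.4 and 38.2 in the FFA libraries and 33.8, 33.8 and 35.7 in the FFA_SIN libraries. The 3 groups did not overlap, with NC highest and FFA_SIN lowest. Myc differed by -0.60 ± 0.03 (SE, adjusted p = 2.85e-07) in FFA against NC and by -0.13 ± 0.03 (SE, adjusted p = 0.00454) in FFA_SIN against FFA. Of 10 tested genes of the MYC network, 3 fell and 1 rose in FFA against NC, and 3 fell and 2 rose in FFA_SIN against FFA. The shares of all tested genes were 18.4% down and 19.1% up in the first and 17.3% down and 13.9% up in the second comparison. Mxd1, which competes with MYC for MAX, measured 2.13 ± 0.0852 FPKM in NC, 1.47 ± 0.111 in FFA and 1.14 ± 0.018 in FFA_SIN (SD, n = 3) and changed by -0.34 (adjusted p = 0.000629) and -0.21 (adjusted p = 0.012). Mxi1, of the same family, differed by 0.03 (adjusted p = 0.577) and then rose by 0.17 (adjusted p = 0.00933). Mxd3, also of that family, measured 2.3 ± 0.0228 FPKM in NC, 2.77 ± 0.212 in FFA and 2.23 ± 0.261 in FFA_SIN (SD, n = 3), rose by 0.19 (adjusted p = 0.0407) and then fell, with -0.22 (adjusted p = 0.0236), the largest difference of the list in FFA_SIN against FFA.

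Other ribosome biogenesis genes followed in part. The 45 genes and the other lists were chosen with earlier results of these data known. A difference between their shares cannot be told apart from that choice. Of 118 tested genes outside the 45, 44 fell (37.3%), 7 rose and 67 did not pass in FFA against NC, with a median log2 difference of -0.07. In FFA_SIN against FFA 13 fell and 3 rose, and in FFA_SIN against NC 56 were lower and 9 higher. All tested genes gave 18.4% down and 19.1% up, then 17.3% and 13.9%, and then 26.5% and 24.7%. Tcof1, treacle, a cofactor of rRNA transcription, measured 13.8 ± 0.766 FPKM in NC, 10.9 ± 0.506 in FFA and 10.6 ± 0.305 in FFA_SIN (SD, n = 3) and fell, with -0.32 (adjusted p = 0.00051) on the log2 scale. Rrn3, the initiation factor that recruits RNA polymerase I, measured 16.9 ± 0.308 FPKM in NC, 15.2 ± 0.554 in FFA and 14.7 ± 0.271 in FFA_SIN (SD, n = 3), with -0.15 (adjusted p = 0.00451). Ubtf, the factor that binds rRNA gene promoters, measured 28.6 ± 0.313 FPKM in NC, 29.1 ± 0.263 in FFA and 30.3 ± 0.3002 in FFA_SIN (SD, n = 3), with 0.03 (adjusted p = 0.342) and 0.06 (adjusted p = 0.0466) in the first and second comparison. Nol6 of the processome changed by -0.33 (adjusted p = 2.22e-05) in FFA against NC and Ppan of large-subunit assembly by -0.40 (adjusted p = 4.71e-05).

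Of the cytosolic ribosomal proteins, the cargo of this machinery, most did not pass in FFA against NC or in FFA_SIN against FFA. Of 44 tested, 1 fell and 12 rose in FFA against NC, 0 fell and 1 rose in FFA_SIN against FFA, and 1 was lower and 25 higher in FFA_SIN against NC. Among all tested genes 18.4% fell and 19.1% rose in the first comparison, 17.3% and 13.9% in the second and 26.5% and 24.7% in the third. Their median log2 differences were 0.07, 0.02 and 0.10. Rpsa measured 581 ± 9.56 FPKM in NC, 649.8 ± 2.95 in FFA and 643 ± 8.99 in FFA_SIN (SD, n = 3) and rose by 0.16 (adjusted p = 0.000189), while Rpl22 measured 56.9 ± 3.21 FPKM in NC, 48.8 ± 1.01 in FFA and 45.4 ± 1.52 in FFA_SIN (SD, n = 3) and fell, with -0.21 (adjusted p = 0.00306). Ribosomal protein genes have many processed pseudogenes, so the division of their reads is uncertain. Rpl5 and Rpl11, which with the smallest rRNA form the particle that inhibits MDM2 when assembly is disturbed, differed by 0.07 (adjusted p = 0.101) and 0.07 (adjusted p = 0.323) in FFA against NC. Mdm2, the ubiquitin ligase of p53, measured 38 ± 0.664 FPKM in NC, 26.6 ± 0.256 in FFA and 28.9 ± 0.406 in FFA_SIN (SD, n = 3). Mdm2 fell, with -0.50 (adjusted p = 3.05e-07) and then rose by 0.11 (adjusted p = 0.00313). Trp53, which encodes p53, measured 42.6 ± 0.935 FPKM in NC, 36.6 ± 0.553 in FFA and 39.2 ± 0.74 in FFA_SIN (SD, n = 3), with -0.21 (adjusted p = 0.000134) and 0.10 (adjusted p = 0.0127). Cdkn1a, the cell cycle inhibitor and p53 target, measured 62.1 ± 0.906 FPKM in NC, 50.1 ± 1.79 in FFA and 63.4 ± 1.44 in FFA_SIN (SD, n = 3). It fell, with -0.31 (adjusted p = 4.76e-05) and rose by 0.34 (adjusted p = 2.66e-05). Mdm2, Trp53 and Cdkn1a were each lowest in FFA. Cdkn2a, whose locus encodes cell cycle inhibitors and an MDM2 inhibitor, was not: it measured 85.4 ± 4.78 FPKM in NC, 82.6 ± 1.98 in FFA and 69.2 ± 3.16 in FFA_SIN (SD, n = 3), differed by -0.05 (adjusted p = 0.452) and then fell, with -0.25 (adjusted p = 0.0022). Of the 8 tested genes of this p53 list, Rrs1 included, 4 fell and 0 rose in FFA against NC, and 1 fell and 4 rose in FFA_SIN against FFA.

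Proliferation genes were mixed in FFA against NC, and those that passed in FFA_SIN against FFA were all lower. Of 16, 6 fell and 5 rose in FFA against NC, where 18.4% and 19.1% of all tested genes did. In FFA_SIN against FFA 7 fell and 0 rose, where 17.3% and 13.9% of all tested genes did. In FFA_SIN against NC 8 were lower and 3 higher, where 26.5% and 24.7% of all tested genes were. Mcm4, of the replicative helicase, measured 25.9 ± 0.492 FPKM in NC, 20.4 ± 0.913 in FFA and 19.8 ± 0.308 in FFA_SIN (SD, n = 3) and fell, with -0.33 (adjusted p = 6.11e-05). Mki67, which encodes the Ki-67 protein, measured 19.7 ± 0.63 FPKM in NC, 23.9 ± 0.414 in FFA and 20.8 ± 0.422 in FFA_SIN (SD, n = 3), rose by 0.27 (adjusted p = 8.3e-05) and then fell, with -0.19 (adjusted p = 0.000739). Their part in the nucleolar differences was not tested.

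**Figure D5:**
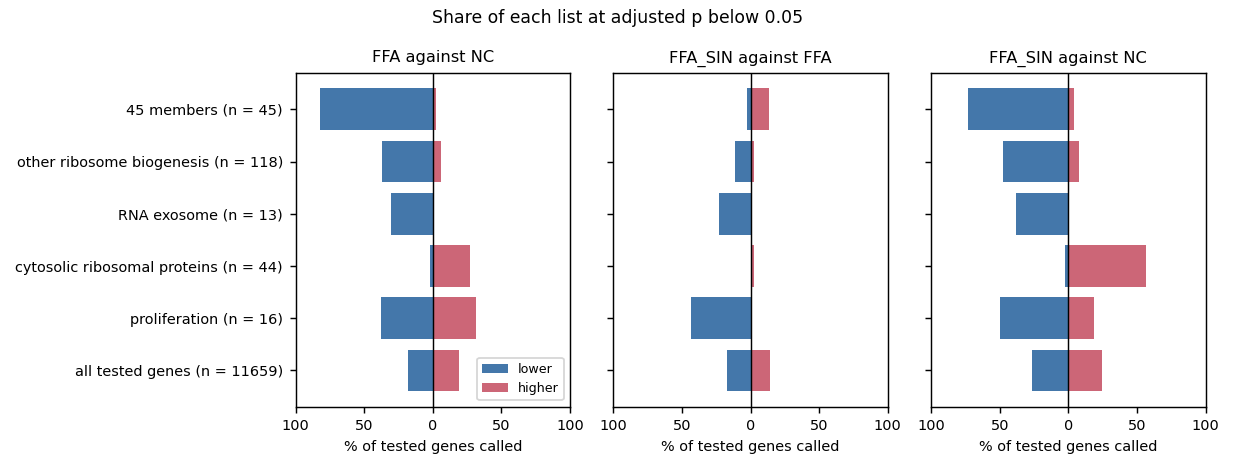
Share of each gene list called lower or higher in the 3 comparisons (limma, adjusted p below 0.05), beside all tested genes. In FFA against NC 82.2% of the 45 nucleolar genes and 37.3% of the other ribosome biogenesis genes were lower, beside 18.4% of all tested genes. The gene lists were chosen with earlier results of these data known.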

How the data were processed

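Total RNA of 9 AML12 libraries, 3 per group, was extracted with a mirVana kit, kept at an RNA integrity number of at least 7 and made into TruSeq stranded libraries, per the labels' protocols. Reads were trimmed with Trimmomatic and aligned with HISAT2 to GRCm39, per the submitters' processing notes. The counting tool is not given in the sources used here, nor are its annotation, its use of strand or any version. The authors deposited 1 table of 30350 genes whose unit, FPKM, was inferred from its values. Of its IDs, 28734 (94.7%) matched a symbol. FPKM steps of low genes gave the implied reads per library. No 2 libraries were identical.

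From the deposited FPKM, log2(FPKM + 1) was fitted over all 9 libraries as 3 group means (limma 3.58.1, R 4.3.3), with a variance trend and genes of mean FPKM of at least 1. Tests were two-sided with Benjamini-Hochberg adjustment over all 11659 genes at 0.05. A fold change on this scale understates that of low genes. Except for SD where stated, ± is a standard error of a log2 difference. The script was tested on simulated data. The members and gene lists were chosen with earlier results of these data known. Genes given by library were up to 4 per role with the smallest adjusted p in any comparison; examples from other lists were picked, with their values in view, among the up to 3 per comparison with the largest called differences, and not all of these are named. Myc, Ubtf, Rrn3, Tcof1, Mdm2, Trp53, Rpl5 and Rpl11 were always named. Gnl3, Pes1, Npm1, Nop10 and Wdr12 were added after their values were seen. Alternatives were another pseudocount, other filters, median-of-ratios scaling, no variance trend, a replicate block, GC and length terms, only the groups compared, and each library left out.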

Additional observations from a re-analysis of the deposited data

How the results depend on the processing

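The fall of the 45 genes in FFA against NC kept its direction under every alternative run: 33 to 37 genes fell and 0 or 1 rose. With a mean of at least 5 FPKM, Polr1e, Heatr1, Rrp1b and Wdr12 were not tested, so counts with that filter are over the remaining genes. With log2(FPKM + 0.1) the median difference was -0.21 in FFA against NC and -0.19 in FFA_SIN against NC. The count of genes that rose in FFA against NC was 0 with median-of-ratios scaling, without the variance trend, with the replicate block, with only the 2 groups compared and with any 1 library left out, since Pes1 lost its call in 13 of 17 alternatives. With 1 library left out, the median was -0.20 to -0.18 in FFA against NC and -0.19 to -0.17 in FFA_SIN against NC, and in FFA_SIN against FFA 3 to 8 genes rose and 0 to 2 fell. The lowest count, 3, was without FFA_SIN replicate 3. In FFA_SIN against NC 31 to 34 genes were lower and 2 or 3 higher over all alternatives. Nop10 reversed in FFA against NC without NC replicate 2, and its leave-out values ran from -0.018 to 0.12 (the latter without FFA replicate 2). With no filter on low values, Polr1e, Nop14, Nip7 and Utp15 lost their calls in FFA against NC (adjusted p 0.0993, 0.0587, 0.0726 and 0.0853), as did Nob1 (0.0813) and Rrp12 (0.0512) in FFA_SIN against FFA and Wdr74 (0.0671) in FFA_SIN against NC. With only the 2 groups compared, Polr1e (0.0693) and Nob1 (0.0685) lost theirs. Nolc1 passed as higher in FFA_SIN against FFA with median-of-ratios scaling (0.0454) and with GC and length trends removed (0.0435). Nop14 passed as lower in FFA_SIN against NC with a mean of at least 5 FPKM (0.0452) or GC and length trends removed (0.0344). The cause of these changes was not tested. With 3 libraries per group, differences much smaller than the interval reach of a gene could not be resolved, and that reach varied by gene. For genes that did not pass, its median was 0.085 in FFA against NC, 0.078 in FFA_SIN against FFA and 0.089 in FFA_SIN against NC.

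The libraries of different groups share replicate numbers, and deviations of same-numbered libraries correlated by -0.015 to 0.174. Libraries with different numbers were not compared in this way, so whether same-numbered libraries were paired cannot be told. With the replicate block, 35 genes fell and 0 rose in FFA against NC, 1 fell and 7 rose in FFA_SIN against FFA, and 33 were lower and 3 higher in FFA_SIN against NC. The block ended the calls of Pes1, Polr1e and Utp15 in FFA against NC (adjusted p 0.0561, 0.0562 and 0.0643) and added Nolc1 in FFA_SIN against FFA (0.0375) and Nop10 in FFA_SIN against NC (0.0185).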

Other observations

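The RNA exosome, the nuclease complex that trims rRNA precursors, had a few subunits that fell. Of 13 tested genes, 4 fell and 0 rose in FFA against NC, 3 fell and 0 rose in FFA_SIN against FFA, and 5 were lower and 0 higher in FFA_SIN against NC. These falls, 30.8%, 23.1% and 38.5% of the list, stand beside 18.4%, 17.3% and 26.5% of all tested genes, a gap of few genes in a list of this size. Exosc5 measured 6.72 ± 0.542 FPKM in NC, 5.43 ± 0.0223 in FFA and 4.62 ± 0.375 in FFA_SIN (SD, n = 3) and fell, with -0.26 (adjusted p = 0.00768) and -0.20 (adjusted p = 0.0323) in the first and second comparison, which share the FFA libraries. Exosc2 measured 10.9 ± 0.472 FPKM in NC, 10.01 ± 0.208 in FFA and 8.85 ± 0.582 in FFA_SIN (SD, n = 3), with -0.12 (adjusted p = 0.0723) and -0.16 (adjusted p = 0.0234). Exosc8 measured 4.92 ± 0.0456 FPKM in NC, 4.59 ± 0.0906 in FFA and 4.1 ± 0.285 in FFA_SIN (SD, n = 3), with -0.08 (adjusted p = 0.154) and -0.13 (adjusted p = 0.0374).

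Of the 118 other ribosome biogenesis genes tested, 13 fell in FFA_SIN against FFA (11.0%), beside 17.3% of all tested genes. Among these 13, Ddx56 and Rpf1 had not passed in FFA against NC, whereas Gnl3l and Gar1 had fallen there too. Ddx56, a helicase of large-subunit assembly, measured 22.6 ± 1.04 FPKM in NC, 22.2 ± 0.418 in FFA and 19.7 ± 0.164 in FFA_SIN (SD, n = 3), with -0.02 (adjusted p = 0.659) and -0.17 (adjusted p = 0.00373). Rpf1, an assembly factor of the same subunit, measured 11 ± 0.359 FPKM in NC, 10.7 ± 0.25 in FFA and 9.43 ± 0.0712 in FFA_SIN (SD, n = 3), with -0.04 (adjusted p = 0.34) and -0.16 (adjusted p = 0.00268). Gnl3l, a GTPase related to Gnl3, measured 13 ± 0.571 FPKM in NC, 12.1 ± 0.0513 in FFA and 10.6 ± 0.255 in FFA_SIN (SD, n = 3) and fell, with -0.09 (adjusted p = 0.0493) and -0.18 (adjusted p = 0.00227), whereas Gnl3 rose by 0.16 (adjusted p = 0.00538) in FFA_SIN against FFA. Gar1, of box H/ACA snoRNPs, measured 12.5 ± 0.329 FPKM in NC, 10.3 ± 0.0646 in FFA and 9.03 ± 0.781 in FFA_SIN (SD, n = 3) and fell in both, with -0.25 (adjusted p = 0.00451) and -0.18 (adjusted p = 0.0239). A few genes moved upward instead. Utp14a, a processome protein, measured 7.33 ± 0.388 FPKM in NC, 8.15 ± 0.156 in FFA and 9.47 ± 0.206 in FFA_SIN (SD, n = 3) and rose by 0.14 (adjusted p = 0.016) and 0.19 (adjusted p = 0.00319). Ddx52 and Nsa2, chosen after their values were seen, rose in FFA against NC by 0.17 (adjusted p = 0.00451) and 0.11 (adjusted p = 0.0034).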
